A study of Bos taurus with 30 samples.

Results

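Members of the miR-99, miR-100 and miR-125 families were examined in small RNA libraries from 30 Holstein-Friesian bull calves, made from the anterior lobe of the pituitary. The members were bta-miR-99a-5p, bta-miR-99a-3p, bta-miR-99b, bta-miR-100, bta-miR-125a and bta-miR-125b, which were 6 of the 1030 mature miRNAs listed. They were selected on measured values, miR-125a for its lower level in HI calves and miR-99b and miR-100 for differing along the order of the calf label numbers. Differences between the diets and along the label order are therefore given as descriptions, with no p-value.

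The HI group (n = 15) received a high plane of nutrition, with 1.5 kg of milk replacer in 10 L per day and concentrate without restriction. The MOD group (n = 15) received a moderate plane, with 0.5 kg of milk replacer in 4 L per day and 0.5 kg of concentrate. The diets began at 2 weeks of age, and the gland was collected at 12 weeks of age. Each calf gave 1 library, so p-values measure the spread between calves. The calves came from several farms and sires, which the labels do not give per calf. According to the paper, calves were assigned to the diets after blocking by age, bodyweight, sire and farm. The labels do not give these blocks, so the fits leave them out.

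The miR-99 and miR-100 miRNAs form a family with the same seed, the stretch near the 5′ end that pairs with target mRNAs. Transcripts of the mTOR and IGF1 receptor pathway are known targets of that family in other tissues. The miR-125 miRNAs are the vertebrate relatives of lin-4, the developmental timing RNA of the nematode, and let-7 is the other timing miRNA first described there. In vertebrate genomes the genes of the 3 families lie together in clusters, each of which can be copied as 1 long transcript that is then cut into separate miRNAs.

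In the RefSeq gene table of the ARS-UCD2.0 assembly there were 3 such clusters. One held MIR99B, MIRLET7E and MIR125A, another held MIR125B-1, MIRLET7A-2 and MIR100, and the last held MIR125B-2, MIRLET7C and MIR99A, with 0 other genes listed between the members of each. MIR125A overlapped SPACA6, MIR125B-1 lay within the uncharacterised genes LOC101903557 and LOC100848689, and the MIR99A cluster lay within LOC132345457. Mature miR-125b is made from 2 genes, and the reads from each cannot be told apart. The miR-99a hairpin gives miR-99a-5p, its main product, and miR-99a-3p from the opposite arm.

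Values are counts per 1e+06 reads (CPM) scaled by TMM factors, which correct for differences in library composition. The libraries held 6650492 to 11086524 reads placed on miRNAs, with a median of 8672424 in HI and 8856734 in MOD libraries. All 6 members were among the 419 miRNAs that passed the filter on low values. The least abundant, miR-99a-3p, rested on 992 to 2020 reads per library, so counting error was small beside the spread between calves. The table gave miR-125b values that rested on a fraction of a read (0.5) in 11 libraries, and the other 5 members rested on whole reads. miR-375 and miR-7, abundant in pituitary endocrine cells, summed to between 119220 and 212047 CPM. The 4 neural markers summed to between 9.91 and 109 CPM, highest in HI calf 2, and of these miR-124a, miR-124b and miR-9-3p reached at most 4.06 CPM and miR-9-5p made up the rest. The 3 muscle markers summed to between 5.15 and 77.3 CPM, highest in HI calf 1, and of these miR-1 and miR-206 reached at most 0.112 CPM and miR-133a made up the rest. HI calf 1 also stood apart with a stromal marker sum of 183489 CPM, against 32239 to 81897 CPM in the other calves. In bulk tissue, fewer cells of a type and less of a miRNA per cell cannot be told apart.

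The members together made up a mean of 2.44% of the reads on miRNAs. miR-125a was the most abundant, at 10006 ± 1234 CPM (SD, n = 30), and had the place 25 in the order of mean level of all miRNAs listed. miR-99b followed at 5761 ± 1776 CPM, miR-125b at 5663 ± 564 CPM, miR-99a-5p at 1445 ± 213 CPM, miR-100 at 1357 ± 432 CPM and miR-99a-3p at 155 ± 16.0 CPM. Reads of different miRNAs also reflect how well each is captured in library preparation, so the order is one of reads. The spread between calves relative to the mean was 30.8% for miR-99b and 31.9% for miR-100, against 9.96% to 14.7% for the other 4 members.

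The order of the levels was tested within each calf between neighbours, which were taken from the order of mean level in these same data. The choice of members did not use the levels relative to each other, but it did use the change of miR-99b and miR-100 along the label order. miR-125a exceeded miR-99b by 1.79 times and in 30 of 30 calves (two-sided paired sign-flip permutation test, adjusted p = 1.67e-05 over 5 pairs). miR-125b exceeded miR-99a-5p by 3.94 times and miR-100 exceeded miR-99a-3p by 8.35 times, each in 30 of 30 calves and with the same adjusted p. Before adjustment the permutation p of each of these pairs was 1e-05, the smallest that the permutations allowed. Pooled over the 30 calves, the neighbours miR-99b and miR-125b did not differ in mean level beyond the spread (ratio 0.983, permutation test, adjusted p = 0.672), with miR-99b the higher in 9 calves. miR-99a-5p exceeded miR-100 by 1.10 times and in 20 of 30 calves (permutation test, adjusted p = 0.0194). For the pairs miR-99b with miR-125b and miR-99a-5p with miR-100, the direction was not the same in all calves, and it followed the label order, as described below. The pooled p-values of these pairs thus depend on the mix of calves along that order.

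The labels give each calf a number of 5 digits, and what its order stands for is not given. When the calves were placed in that order, miR-99b and miR-100 stepped up together between the calves at places 21 and 22. At place 21, MOD calf 14 had 5185 CPM of miR-99b and 1267 CPM of miR-100. At place 22, MOD calf 15 had 9552 CPM of miR-99b and 1930 CPM of miR-100. The 9 calves from place 22 onwards, 5 HI and 4 MOD, are called the 9 late-label calves and were set beside the other 21, which were 10 HI and 11 MOD. The boundary was placed earlier from miR-99b in these data, so what follows describes the split and does not test it.

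**Figure D1:**
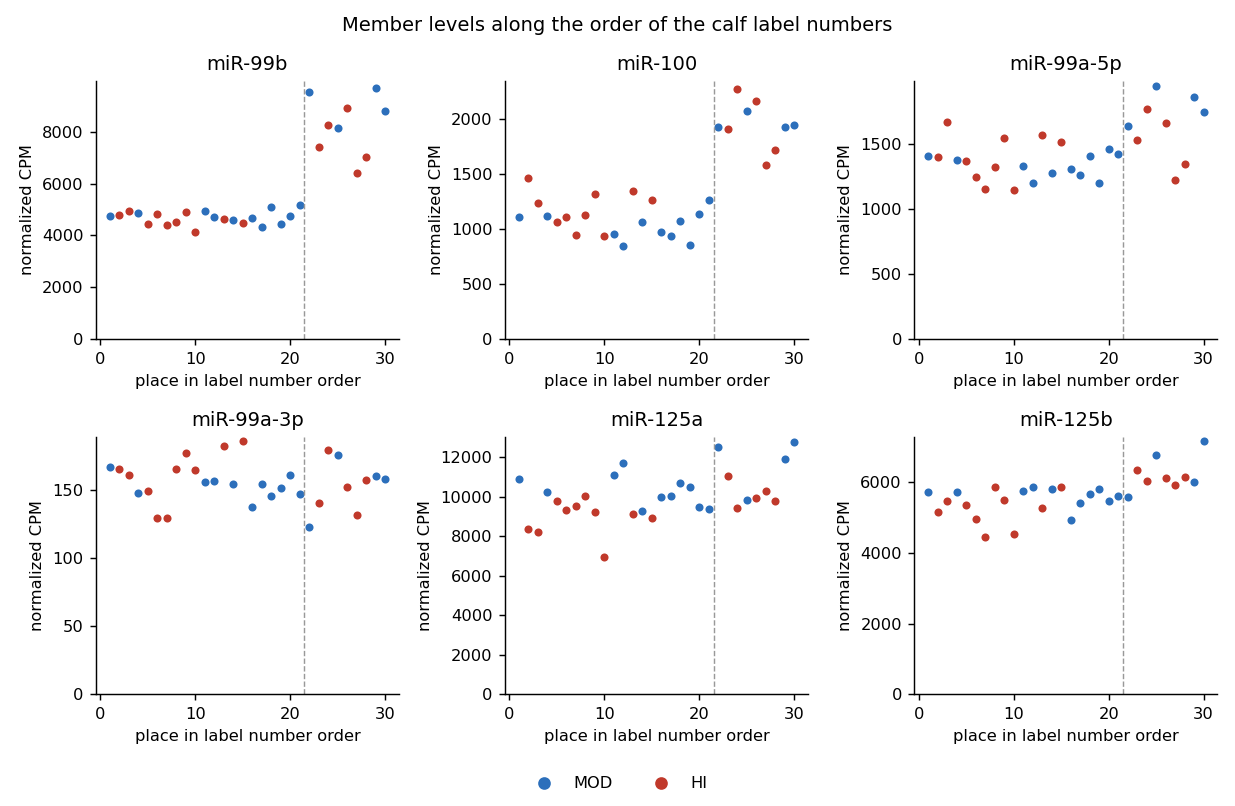
Normalized level (CPM) of each member in each of the 30 calves, placed by label number and coloured by diet, with a dashed line between places 21 and 22. miR-99b and miR-100 lie higher in every calf right of the line than in any calf left of it, the other 4 members overlap across it, and miR-99a-3p has a mean of 153 CPM right of it and 156 CPM left of it.

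miR-99b was at 6407 CPM at the lowest, 8266 CPM at the median and 9694 CPM at the highest in the 9 late-label calves, and at 4116, 4723 and 5185 CPM in the other 21. The values did not overlap. On the log2 scale the difference was 0.81 (SE 0.05, diet in the model), 0.72 among HI calves and 0.92 among MOD calves. miR-100, its family member from another cluster, was at 1580, 1930 and 2276 CPM in the late-label calves and at 849, 1107 and 1468 CPM in the rest, again with no overlap. Its log2 difference was 0.82 (SE 0.08). Of the 419 miRNAs tested, 1.19% had values that did not overlap between the sets, which were 5 miRNAs including these members.

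The third family member moved less. miR-99a-5p was at 1222, 1665 and 1946 CPM in the late-label calves and at 1147, 1373 and 1673 CPM in the rest, with a log2 difference of 0.26 (SE 0.07). Its values overlapped between the sets, although among MOD calves they did not (log2 difference 0.43). Among HI calves they overlapped, with a log2 difference of 0.11 and 3 of 5 late-label calves above the median of the other HI calves. The share of all miRNAs without overlap among MOD calves was not computed. miR-99a-3p, from the same hairpin, was at 122, 157 and 179 CPM against 129, 156 and 186 CPM, with a log2 difference of -0.04 (SE 0.06). The level of the 5p arm over the 3p arm was thus 10.7 times in the late-label calves and 8.72 times in the rest, as geometric means.

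miR-125b was at 5561, 6112 and 7139 CPM in the late-label calves and at 4431, 5477 and 5864 CPM in the rest, a log2 difference of 0.20 (SE 0.04). Of the late-label calves, 8 lay above the highest of the rest. miR-125a was at 9437, 10296 and 12743 CPM against 6970, 9501 and 11711 CPM, a log2 difference of 0.18 (SE 0.05). Here 3 late-label calves lay above the highest of the rest.

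In all, 5 of the 6 members were called in the late-label calves at a false discovery rate (FDR) under 0.1 in limma, each higher. The background was high, since 26% of the 419 miRNAs were called between these sets, 11.7% higher and 14.3% lower. Of these calls 49 were higher and 60 lower, which became 36 and 80 with upper quartile normalization and 52 and 42 with library sizes that leave out the 5 most abundant miRNAs. The median log2 difference was 0.23 over the members and -0.02 over all miRNAs tested. The endocrine markers miR-375 and miR-7 were called higher in the late-label calves, with a sum of 159431 to 212047 CPM against 119220 to 191519 CPM. None of the 18 tested stromal, endothelial, blood, neural and muscle markers was called between the sets. Median depth was 9316262 reads in the late-label calves and 8672424 reads in the rest. The part of these in the differences was not tested. Without HI calf 1, an alternative added after its marker levels were seen, 5 members were called as well.

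Within each cluster the neighbouring miRNAs differed in how far they moved with the label order. miR-99b was higher by a log2 difference of 0.81, while in the same cluster let-7e was at -0.04 (SE 0.05) and miR-125a at 0.18. The ratio of miR-99b to miR-125a within a library, which no scaling between libraries affects, had a median of 0.763 in the late-label calves and 0.478 in the rest, and its values did not overlap. In the cluster of miR-100, let-7a-5p had a log2 difference of -0.18 (SE 0.03) and miR-125b one of 0.20, and let-7a-5p and miR-125b are also made from genes outside that cluster. The ratio of miR-100 to let-7a-5p had a median of 0.127 in the late-label calves and 0.0619 in the rest, with no overlap. In the cluster of miR-99a, let-7c was at -0.14 (SE 0.09).

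**Figure D2:**
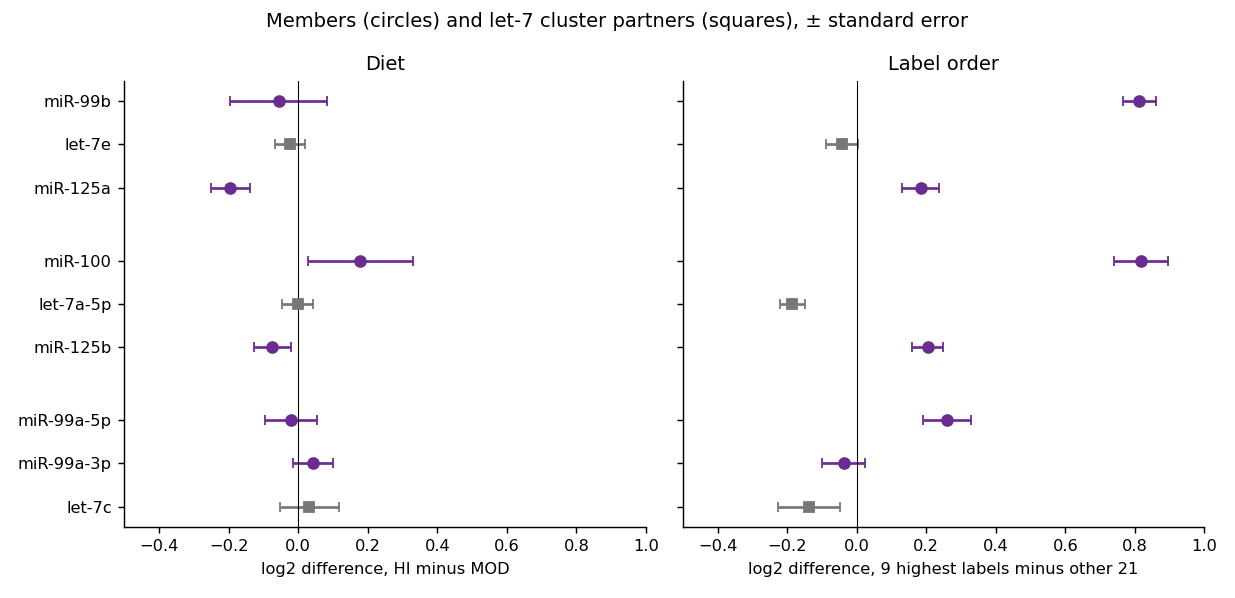
Log2 differences with standard errors from limma for the members (circles) and the let-7 miRNAs of their clusters (squares), in 3 blocks by cluster, between the diets on the left and between the 9 late-label calves and the other 21 on the right. On the right miR-99b (0.81) and miR-100 (0.82) lie far from the let-7 miRNA and the miR-125 miRNA of their clusters, and on the left miR-125a (-0.20) is the lowest.

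The let-7 family was taken as the related group that had no part in the choice of members. Of its 10 miRNAs, 6 were called lower in the late-label calves and 0 higher, against the background of 14.3% and 11.7%, and the family median was -0.15. Over the other 4 scalings run, 5 or 6 were called lower and 0 higher. The 6 were let-7a-5p (-0.18), let-7a-3p (-0.16), let-7b (-0.12), let-7d (-0.17), let-7i (-0.17) and miR-98 (-0.25). Those not called included let-7f (-0.03) and let-7g (0.03). Apart from let-7a-3p, which is the opposite arm of a let-7a hairpin, these miRNAs share a seed and much of their sequence, so reads can be placed on the wrong member, and they do not count as separate observations.

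The step in the label order also turned the order of the levels. In the late-label calves miR-99b was higher than miR-125b in 9 of 9, with a ratio of 1.32 as geometric mean and from 1.09 to 1.72. In the other 21 calves it was higher in 0, with a ratio of 0.866 and from 0.768 to 0.994. The ratio of miR-100 to miR-99a-5p was above 1 in 9 of 9 late-label calves (1.04 to 1.30) and in 1 of 21 of the rest (0.707 to 1.05). The exception was HI calf 1, the calf with the high stromal markers. By contrast, the ratio of miR-99b to miR-100 was 4.22 in the late-label calves and 4.29 in the rest, a log2 difference of -0.02 (SE 0.07).

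**Figure D3:**
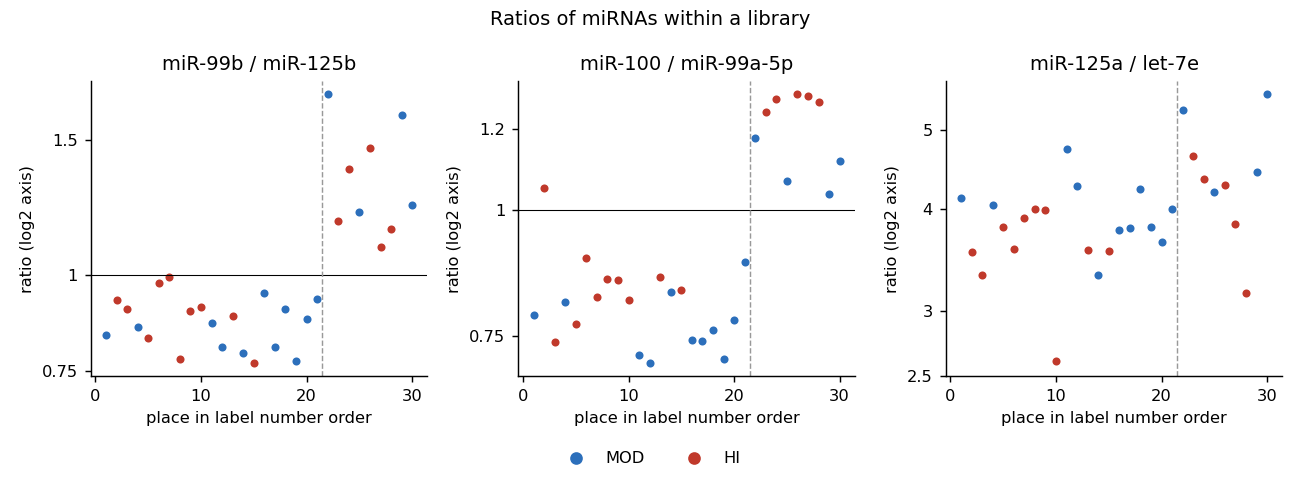
Ratios of normalized levels within each library, on log2 axes, against the place of the calf in label order, coloured by diet, with a dashed line between places 21 and 22 and, on the left and in the middle, a solid line at a ratio of 1. miR-99b over miR-125b exceeds 1 right of the dashed line alone, miR-100 over miR-99a-5p does so there and in 1 calf left of it, and miR-125a over let-7e has its lowest value, 2.61, in HI calf 8.

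The numbers also fall into 4 ranges by their last digits, a grouping that was not used to choose the members and whose meaning is not given. With diet and label set in the model, limma called 0.239% of the 419 miRNAs across the ranges (1 miRNA) and 0 of the 6 members. 23 miRNAs had an unadjusted p under 0.05, and no member did.

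Between the diets, miR-125a was lower in HI calves. It was at 6970 CPM at the lowest, 9437 CPM at the median and 11061 CPM at the highest in HI calves, and at 9251, 10497 and 12743 CPM in MOD calves. The groups overlapped, with 14 of 15 HI calves below the MOD median and 6 of them below the lowest MOD calf. The mean in HI was 0.874 of that in MOD, and the log2 difference was -0.20 (SE 0.06). This was a call at an FDR under 0.1 but not with a fold change above 1.5 as well. The background was 3.58% of the 419 miRNAs called, 1.67% lower and 1.91% higher in HI, and with the choice made on this contrast nothing follows from 1 of 6 members being called. The calls over all miRNAs, 8 higher and 7 lower, became 16 and 2 with total reads, 19 and 1 with library sizes that leave out the 5 most abundant miRNAs, and 3 and 26 with upper quartile normalization.

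The difference of miR-125a lay the same way on both sides of the label step. Among the other 21 calves it was -0.21, with 10 of 10 HI calves below the MOD median, and among the late-label calves -0.21, with 5 of 5 below. Fitted within each set, it was called in the 21 calves and not in the 9. In the 9, miR-99a-5p, miR-99b and miR-125b also had 5 of 5 HI calves below the MOD median. The size of the miR-125a difference depended on the scaling. With total reads it was -0.13, with library sizes that leave out the 5 most abundant miRNAs -0.13, and with upper quartile normalization -0.30. Under the former 2 it was no longer called. Set against the median of all miRNAs tested under the same scaling, it lay between -0.22 and -0.20 under the 5 scalings run. A scaling moves miR-125a and the median by nearly the same amount, so this value could hardly change and does not test the difference. The deposited TMM factors had a mean of 1.02 ± 0.07 in HI libraries and 0.979 ± 0.03 in MOD libraries (SD, n = 15). Ratios within a library leave the scaling out. The ratio of miR-125a to let-7e, from its own cluster, had a median of 3.80 in HI and 4.12 in MOD calves, a log2 difference of -0.17 (SE 0.07), with 12 of 15 HI calves below the MOD median. The ratio of miR-125a to miR-125b, its family member, had a median of 1.69 in HI and 1.86 in MOD calves, a log2 difference of -0.12 (SE 0.05). The lowest miR-125a, 6970 CPM, was in HI calf 8, and without that calf the difference was -0.17. Without HI calf 1 it was -0.19.

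**Figure D4:**
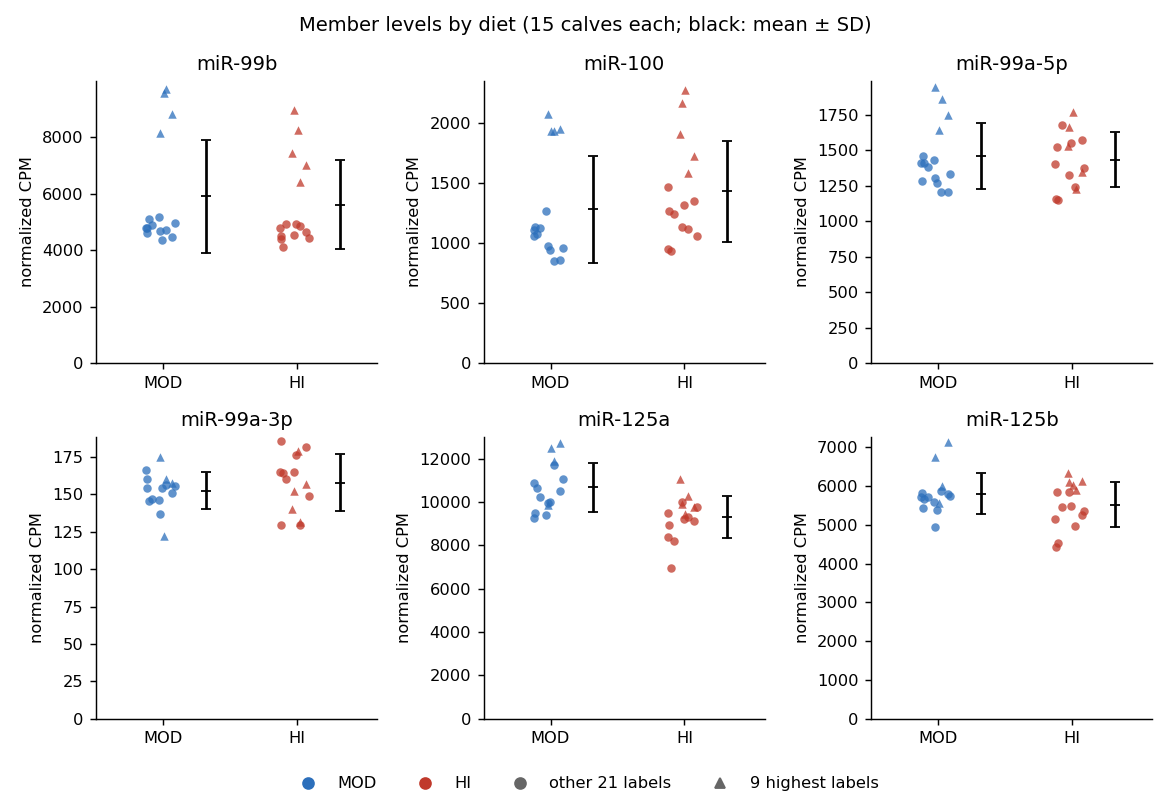
Normalized level (CPM, axes from 0) of each member in the MOD and HI calves, 15 each, with triangles for the 9 late-label calves, circles for the other 21, and black bars for the mean ± SD. miR-125a is lower in HI, at a mean of 9330 CPM against 10682 CPM, and the upper points of miR-99b and miR-100 are the late-label calves in both diets.

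The other members had smaller differences beside their errors and were not called. For miR-125b, HI calves had 4431, 5477 and 6329 CPM and MOD calves 4932, 5722 and 7139 CPM, with a log2 difference of -0.08 (SE 0.05). miR-99b differed by -0.06 (SE 0.14), with medians of 4846 CPM (HI) and 4881 CPM (MOD). miR-99a-5p differed by -0.02 (SE 0.08) and miR-99a-3p by 0.04 (SE 0.06). The member median was -0.04, and that of all miRNAs tested was 0.02.

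miR-100 lay in the other direction. HI calves had 935, 1320 and 2276 CPM and MOD calves 849, 1107 and 2076 CPM, with a log2 difference of 0.18 (SE 0.15) that was not called, with 12 of 15 HI calves higher than the median of MOD. Among the 21 calves it was 0.19, and among the late-label calves -0.04. Beside it, the ratio of miR-99b to miR-100 was lower in HI calves by a log2 difference of -0.24 (SE 0.05), with 14 of 15 HI calves below the MOD median. That difference was -0.24 among the 21 calves and -0.21 among the late-label calves. Several ratios were compared, and this one had the largest diet difference beside its error, while neither miRNA was called between the diets. How often other pairs of miRNAs differ this much was not computed. The ratio of miR-100 to miR-99a-5p in the late-label calves was 1.25 to 1.30 in the 5 HI and 1.04 to 1.18 in the 4 MOD calves. Among the other 21 calves it was 0.741 to 1.05 in HI and 0.707 to 0.887 in MOD calves, which overlapped.

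Of the 10 let-7 miRNAs, limma called 0 between the diets, and 1 had an unadjusted p under 0.05 (let-7g, log2 difference -0.09, SE 0.03, adjusted p = 0.183). edgeR's quasi-likelihood test called 0 and DESeq2 called 1. The cluster partners let-7e (-0.02), let-7a-5p (-0.00) and let-7c (0.03) lay near 0.

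Whether the diet difference was the same on both sides of the label step was tested as an interaction in limma. None of the 419 miRNAs was called (0%), and 21 had an unadjusted p under 0.05. These 21 included 2 of the 6 members, miR-99a-5p and miR-99b. 0 of the 6 members were called. The split was placed from miR-99b, so the members' values are given as a description. For miR-99a-5p the diet difference was -0.26 in the late-label calves and 0.06 in the rest, and for miR-99b it was -0.26 and -0.05. All 5 HI late-label calves were below the median of the 4 MOD ones for both. For miR-125a the diet difference was -0.21 on both sides.

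How far the members varied together was examined within the 9 and within the 21 calves for 8 pairs, or 16 correlations, with two-sided permutation tests and Benjamini-Hochberg adjustment over them. Of the 16, miR-99a-5p with miR-100 in the 21 calves passed an adjusted p of 0.05 for both measures, with Pearson's r = 0.79 (permutation p = 7e-05, adjusted p = 0.00112) and Spearman's rho = 0.83 (permutation p = 1e-05, adjusted p = 0.00016). Without the 2 calves farthest from the median of miR-99a-5p, r was 0.80, and without HI calf 1 it was 0.85. In the 9 calves r was 0.82 (exact permutation p = 0.00817, adjusted p = 0.051), rho was 0.72 (exact permutation p = 0.0369, adjusted p = 0.118), and r fell to 0.27 without the 2 farthest calves. These miRNAs come from different clusters and are near-identical in sequence, and whether reads of one were placed on the other was not tested.

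**Figure D5:**
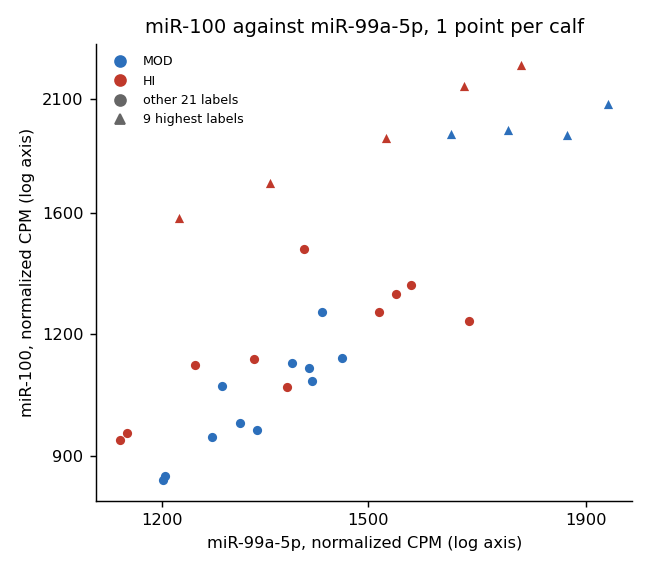
miR-100 against miR-99a-5p, normalized CPM on log axes, 1 point per calf, coloured by diet, with triangles for the 9 late-label calves and circles for the other 21. The points rise together within each set (r = 0.79 in the 21 and 0.82 in the 9), and the late-label calves lie above the rest at similar levels of miR-99a-5p.

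The arms of the miR-99a hairpin had r = 0.55 in the 21 calves (permutation p = 0.00957, adjusted p = 0.051; rho = 0.47, permutation p = 0.0321, adjusted p = 0.118), and r was 0.71 without the 2 farthest calves. With total reads it was 0.69 and passed the correction (permutation p = 0.00066, adjusted p = 0.00528). Of the cluster neighbours, none passed at the deposited scaling. miR-99b with miR-125a had r = 0.34 in the 21 calves (permutation p = 0.134, adjusted p = 0.292; rho = 0.12, permutation p = 0.605, adjusted p = 0.692) and 0.53 in the 9 (exact permutation p = 0.146, adjusted p = 0.292; rho = 0.47, permutation p = 0.213, adjusted p = 0.46). Without the 2 farthest calves these were 0.06 and 0.49. miR-100 with miR-125b had r = 0.09 in the 21 calves (permutation p = 0.687, adjusted p = 0.785; rho = -0.04, permutation p = 0.86, adjusted p = 0.912). miR-99b with let-7e had r = -0.49 in the 21 calves (permutation p = 0.0249, adjusted p = 0.0995; rho = -0.50, permutation p = 0.0211, adjusted p = 0.112), and with total reads r was 0.01. In the MIR99A cluster, miR-99a-5p with let-7c had r = 0.24 in the 21 calves (permutation p = 0.301, adjusted p = 0.481; rho = 0.29, permutation p = 0.193, adjusted p = 0.46). Without the 2 farthest calves its r was 0.56 in the 21 and 0.84 in the 9. With total reads r was 0.49 (permutation p = 0.0231, adjusted p = 0.074) and rho was 0.60, which passed (permutation p = 0.00457, adjusted p = 0.0244). miR-99a-5p with miR-125b had r = 0.37 in the 21 calves (permutation p = 0.0976, adjusted p = 0.283; rho = 0.13, permutation p = 0.566, adjusted p = 0.692). With total reads its r was 0.53 (permutation p = 0.0139, adjusted p = 0.074) and its rho 0.52 (permutation p = 0.0188, adjusted p = 0.0751). With total reads miR-99b with miR-125a had r = 0.16 and miR-100 with miR-125b r = 0.27 in the 21 calves.

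After the mean of each diet and label set was taken off, the correlation over the 30 calves was 0.83 between miR-99a-5p and miR-100, 0.64 between miR-99b and miR-100 and 0.62 between miR-99a-5p and miR-99b. These members of the miR-99 and miR-100 family lie in 3 different clusters. Between cluster neighbours it was 0.16 for miR-99b and miR-125a, 0.32 for miR-100 and miR-125b, 0.44 for miR-99a-5p and miR-125b and 0.56 for miR-99a-3p and miR-125b. Between the arms of the miR-99a hairpin it was 0.60, and between miR-125a and miR-125b 0.25. All values share a library and its scaling, so these are descriptions.

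Among all other miRNAs tested, the same measure gave the ones most like each member over the 30 calves. For miR-99a-5p these were miR-2299-5p (0.68), miR-137 (0.67) and miR-200b (0.61), and for miR-100 they were miR-17-5p (0.65), miR-200b (0.64) and miR-200c (0.62). For miR-99b they were miR-2285m (0.65), which had a mean of only 2.05 CPM, miR-1271 (0.60) and the endocrine marker miR-7 (0.60). For miR-99a-3p they were miR-362-5p (0.76), miR-181d (0.70) and miR-874 (0.69). For miR-125a they were miR-296-5p (0.62), miR-193a-5p (0.61) and miR-29a (0.59), and for miR-125b they were miR-11973 (0.59), miR-92b (0.57) and miR-505 (0.55). No miRNA stood on the list of both miR-125 members, and how often such short lists share none was not computed.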

How the data were processed

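The authors deposited a normalized signal, CPM scaled by TMM factors, for each mature miRNA in each library. The authors assessed reads with FastQC 0.11.8, trimmed them with Cutadapt (2.6 in the submitters' processing notes), kept lengths of 15 to 28 bases, removed other short RNAs and quantified bovine miRNAs with miRDeep2 on ARS-UCD1.2. The spacing of low values gave what 1 read is worth, and with it at least 93.7% of the low values of a library were whole reads, within 0.001 of a read. All columns matched a library.

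Members and lists were chosen with earlier results of these data known. limma 3.58.1 in R 4.3.3 (eBayes with trend) was run on log2(CPM + 1), since the values were normalized. The 419 miRNAs tested were those kept by filterByExpr of edgeR 4.0.16, grouped by diet. Calls were made at FDR < 0.1 after Benjamini-Hochberg adjustment, the level of the study, and with a fold change above 1.5 where stated. On simulated data for the diet comparison with 200 of 419 miRNAs changed, 108 of the 200 were recovered when all were changed 1.2-fold and 184 when all were changed 1.5-fold. Of the unchanged miRNAs, 5 and 7 were called. The simulated share changed was far above the 3.58% called between the diets, so recovery in these data can be lower. The simulated libraries also held no step along the label order. In these data that step stayed in the spread of the diet fit, so recovery can be lower for that reason too. Alternatives were edgeR and DESeq2 1.42.0 on the recovered reads, other scalings, filters, pseudocounts, covariates and boundaries, and leaving out each calf. Named miRNAs are the members, the let-7 relatives, the 3 most like each member, and markers. Gene neighbours came from RefSeq ARS-UCD2.0, without coordinates. Mature sequences were not analysed here.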

Additional observations from a re-analysis of the deposited data

How the results depend on the processing

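The number of members called between the diets was 1 and fell to 0 with total reads and to 0 with library sizes that leave out the 5 most abundant miRNAs. Leaving out each calf in turn gave 1 to 1, and the miR-125a difference then ranged from -0.21 to -0.17. The number of let-7 relatives called between the diets was 0, and 1 with DESeq2 on recovered reads and 2 with upper quartile normalization. The number of correlations that passed by Pearson's r was 1, and 2 with total reads. By Spearman's rho, miR-99a-5p with let-7c and with miR-99a-3p in the 21 calves also passed with total reads (permutation tests, adjusted p = 0.0244 and 0.0032). Over all 419 miRNAs, 15 were called between the diets, 29 with upper quartile normalization and 24 with DESeq2. The cause of these changes was not tested. The scalings moved the median diet difference of all miRNAs between -0.07 (upper quartile) and 0.08 (without the 5 most abundant), and the miR-125a difference set against that median lay between -0.22 and -0.20. That narrow range follows from the scalings moving most miRNAs by nearly the same amount, and does not test the miR-125a difference. No other count of members called changed over the alternatives run for the 30 calves. Between the label sets, 5 members were called under each of them, and without HI calf 1. Fits within 1 diet, which held fewer calves, called fewer members between the sets. There miR-125a was called in neither diet, miR-125b not among MOD calves and miR-99a-5p not among HI calves. No analysis paired across the diets or by the blocks of the study was possible, because the labels give neither pairs nor blocks. Depth did not limit the members, of which the least abundant had 992 reads at the lowest.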
